A study of Mus with 2 samples.

Results

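Macrophages of the newborn mouse kidney were described from single-cell RNA counts of Rbpj mutant kidneys. A barcode was kept when it held at least 2000 unique molecular identifiers (UMIs, 1 per captured RNA molecule) and at most 10% of them in mitochondrial genes. A kept barcode was called a macrophage when the complement genes C1qa, C1qb and C1qc together had at least 5 UMIs, Ctss (cathepsin S) at least 1, Pecam1 (an endothelial adhesion molecule) at most 1 and Epcam (an epithelial adhesion molecule) 0. The macrophages were thus chosen by measured counts of these 6 genes, and 183 of 11369 kept barcodes passed. Replicate 1 gave 105 of 6220 (1.69%, exact binomial 95% interval 1.38 to 2.04) and replicate 2 gave 78 of 5149 (1.51%, 1.20 to 1.89). In what follows, paired values are given for replicate 1 and then replicate 2, and intervals are 95% intervals that cover counting error only.

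Both libraries came from kidneys at postnatal day 0 with the genotype Rbpj c/- ; Foxd1cre/+, and each was a 10x Chromium library that reads cDNA at its 3′ end. Cre is expressed from Foxd1, a gene of the embryonic renal stroma, and macrophages do not descend from that stroma. Every cell of these animals carries the Rbpj allele written as a minus sign, and the labels do not say what each allele lacks. The series also names control libraries, not analysed here, and for that reason nothing below measures the effect of the genotype, and the labels do not say whether the libraries came from separate animals.

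Tissue macrophages are phagocytes that are seeded into organs before birth from the yolk sac and fetal liver, with later additions from circulating monocytes. Their survival depends on the receptor encoded by Csf1r. In developing organs they clear dying cells, recycle haem iron and lipid, and secrete complement, chemokines and growth factors. Expression of Mrc1, Lyve1, Timd4 and Folr2 is commonly used to mark long-resident macrophages, and Ccr2 to mark cells that derive from monocytes more recently.

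The macrophages held 1119427 and 973652 UMIs in sum, with a median of 9683 and 11364.5 per cell, against 12024 and 12311 in all other kept barcodes. The C1q sum per macrophage ran from 5 to 312 UMIs with a median of 132 in replicate 1, and from 8 to 632 with a median of 120.5 in replicate 2. Only 2 and 3 macrophages lay just inside the limit, with 5 to 9 C1q UMIs, while 16 and 17 kept barcodes lay just outside it with 2 to 4, and 93.1% and 94.2% of kept barcodes had none. Those just outside were of a mixed kind: in replicate 1 they held 255 Pecam1 and 262 Epcam UMIs, and in replicate 2 they held 205 Epcam and 214 S100a8 UMIs, S100a8 being a neutrophil gene. A further 35 and 22 barcodes reached 5 C1q UMIs but failed on Ctss, Pecam1 or Epcam, and 32 and 22 of these had a UMI of Mrc1 or Pf4. The libraries shared 6 kept barcode sequences, and no macrophage barcode was shared. Because the C1q, Ctss, Pecam1 and Epcam counts chose the cells, and all other genes were read in the same cells, every comparison below is a description without a test.

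The label was checked against 4 markers that the choice did not use. Levels are given as CPM, the usual scaling of a gene's UMIs to a fixed total, here of all UMIs of the group in that library. Mrc1, the mannose receptor CD206 (chromosome 2, 14229414 to 14332023), stood at 2011 and 2303 CPM in macrophages and at 5.58 and 4.81 CPM in the other barcodes. Pf4, a chemokine made by platelets and by resident macrophages (chromosome 5, 90772435 to 90773383), stood at 3785 and 5119 CPM against 14.1 and 16.0. F13a1, a coagulation factor subunit (chromosome 13, 36867178 to 37050244), was at 976 and 1170 CPM against 5.91 and 3.33. Cx3cr1, the fractalkine receptor (chromosome 9, 120048683 to 120068296), was at 620 and 1067 CPM against 2.75 and 2.60. Each of the 4 was therefore more than 100-fold higher in macrophages in both libraries, and Cx3cr1 was the one that differed most between the libraries. C1qa itself lies beside C1qc and C1qb on chromosome 4 (136895916 to 136898844). Positions are from the RefSeq annotation of GRCm38.p6.

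**Figure D1:**
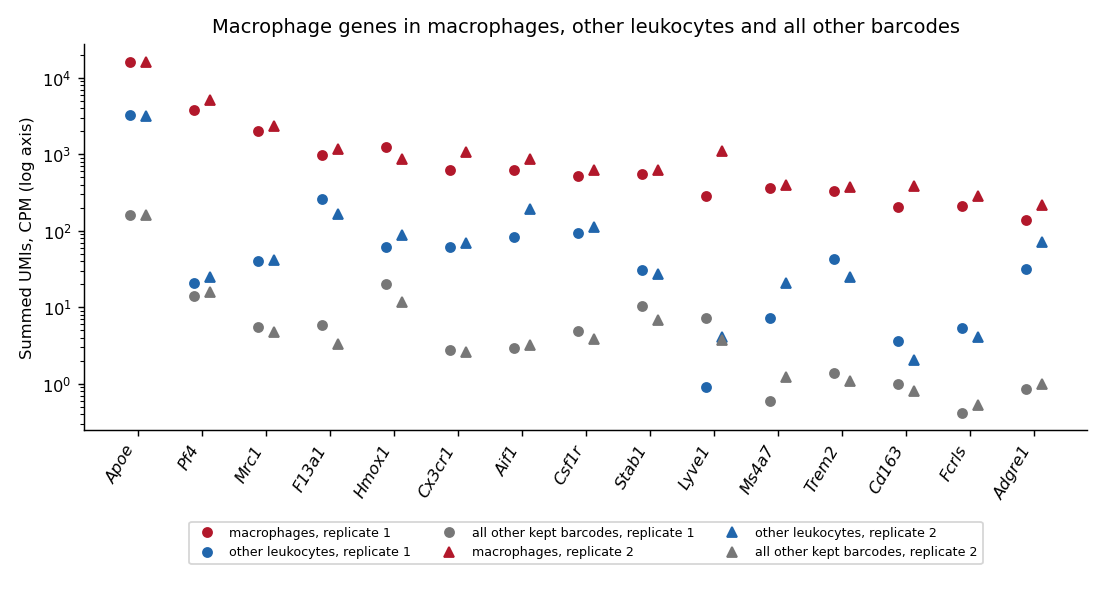
Summed UMIs in CPM (log axis) of 15 genes in macrophages (red), in other leukocytes by the stricter gate (blue) and in all other kept barcodes (grey), with replicate 1 as circles and replicate 2 as triangles. Every red point lies above the blue and grey points of its gene in both libraries.

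Single cells varied around these sums. Mrc1 was found in 86.7% (78.6 to 92.5) and 96.2% (89.2 to 99.2) of macrophages, Pf4 in 89.5% and 97.4%, F13a1 in 81.0% and 79.5%, and Cx3cr1 in 77.1% and 85.9%. All 4 were found together in 61 macrophages of replicate 1 (58.1%) and 52 of replicate 2 (66.7%), and only 1 macrophage, in replicate 1, had none of them. In epithelial barcodes (Epcam at least 1 and no C1q), which should lack these genes, the shares ran from 0.490% to 2.99%, at median depths of 18961 and 17973.5 UMIs. After each cell was thinned at random to 4000 UMIs, which left 90 and 64 macrophages, the shares were 82.2% and 95.3% for Mrc1, 85.6% and 96.9% for Pf4, 73.3% and 73.4% for F13a1, and 74.4% and 87.5% for Cx3cr1.

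Many defining genes of other blood cells had no UMI, while monocyte, erythroid and some B cell RNA was present. Of 9 T or NK cell genes 8 had no UMI in the macrophages of either library, as did 5 of 8 dendritic cell genes (Cd209a, Xcr1, Clec9a, Ccr7 and Itgae), 5 of 7 B cell genes, 5 of 10 neutrophil genes, 3 of 6 mast cell genes and 3 of 6 platelet genes. The summed level was 0.893 and 4.11 CPM for the T or NK list, 1.79 and 1.03 for mast cells, 19.7 and 23.6 for dendritic cells, 24.1 and 7.19 for platelets, 46.5 and 8.22 for neutrophils, and 84.0 and 67.8 for B cells. The B cell value came mostly from Cd79b (61.6 CPM in each library), with Ms4a1 and Cd79a at 0. The neutrophil value of replicate 1 came mostly from 1 cell with 33 S100a8 UMIs. This cell passed the rule with 5 to 9 C1q UMIs and also held 13 Ly6c2, 8 F13a1 and 5 Ccr2 UMIs. It had 0 UMIs of C1qa, Mrc1, Pf4 and Cx3cr1, so its other markers do not bear out the name macrophage. The monocyte list summed to 687 and 160 CPM, against 575 and 556 in the other barcodes, so in replicate 2 it was lower in macrophages. Of its 5 genes that entered, 2 were higher and 1 was lower. The erythroid list summed to 297 and 169 CPM, against 18259 and 16007 in the other barcodes. Among kidney lists, the summed level was 46.5 and 57.5 CPM for endothelium, 183 and 74.98 for stroma, 7.15 and 11.3 for nephron progenitors, 56.3 and 80.1 for proximal tubule and 7.15 and 8.22 for ureteric epithelium. The podocyte list had the highest sum of the kidney lists, at 307 and 179 CPM against 815 and 886 in the other barcodes, and of its 6 genes 5 were lower in macrophages and none was higher. The distal tubule list summed to 132 and 155 CPM, of which Clcn5, an endosomal chloride exchanger, gave 109 and 128.

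Across the genome, 7491 genes had enough UMIs to enter the comparison (at least 20 UMIs in macrophages and others together, and at least 20 CPM in 1 of them, in each library). A gene was called when its ratio was at least 2-fold in the same direction in both libraries. By this rule 969 genes were higher in macrophages (12.9%) and 1419 were lower (18.9%), and the median log2 ratio over all genes was −0.20 and −0.18. The higher calls included 344 genes at 8-fold or more and 63 at 100-fold or more. A gene below 20 CPM in the other barcodes could enter only by being higher in macrophages, and a gene below 20 CPM in macrophages only by being lower. Among 6668 genes with at least 20 CPM in the other barcodes of both libraries, 369 were higher (5.53%). Against single cell classes, 785 of 7149 genes were higher than in endothelial barcodes (11%) and 1215 lower (17%), 1054 of 7197 higher than in stromal barcodes (14.6%) and 1307 lower (18.2%), and 1008 of 7523 higher than in epithelial barcodes (13.4%) and 1475 lower (19.6%). The percentages against all other barcodes are the background for the counts of each gene group that follow, where a group's genes are counted over those that entered. A group low in the other barcodes could hardly come out other than higher. Higher calls with at least 20 CPM in the others were 15 of 17 for lysosome, 7 of 11 for haem and iron and 5 of 9 for lipid genes. They were 4 of 9 for uptake, 1 of 5 for complement and 6 of 14 for cytokine receptor genes. They were 3 of 13 for transcription factor, 3 of 12 for interferon and 2 of 13 for integrin genes.

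The gene whose lower ratio of both libraries was highest was Fcrls, an Fc receptor-like molecule known from microglia, at 209 and 287 CPM in macrophages and 0.416 and 0.532 CPM in the other barcodes. Ms4a7, a membrane protein of macrophages, stood at 359 and 400 CPM against 0.600 and 1.24. C3ar1, the receptor for complement fragment C3a, stood at 211 and 212 CPM against 0.728 and 0.615. Ccl12, a chemokine for monocytes, was at 356 and 389 CPM against 1.26 and 1.20. Trem2, a lipid-sensing receptor, was at 333 and 371 CPM against 1.39 and 1.10. The 20 leading genes, which also held Mrc1, Pf4, Cx3cr1, Aif1, Cd163, Ms4a6d, Clec4n, Fcgr1, Bank1, Ms4a6b, Ly86, Ly9, Rgs1, Gpr34 and Spic, all had at least 184.7-fold more CPM in macrophages in both libraries. Most were carried by many cells, such as Aif1 in 99 of 105 and all 78 macrophages, but Rgs1, a brake on G protein signalling, came from 21 and 12 cells. At the other end, Hba-a1 (adult alpha globin) stood at 49.1 and 43.1 CPM against 3370 and 3902, and Lhx1, Pax2, Sox11, Cited1, Cldn7 and the endothelial claudin gene Cldn5 all had between 0 and 7.15 CPM in macrophages against 138 to 293 CPM elsewhere. In barcodes with at most 100 UMIs Hba-a1 was at 2464 and 2598 CPM. The content of these barcodes differed from that of the kept barcodes, since in replicate 2 Xist was at 172 CPM in them and at 0.198 CPM in the kept barcodes that are not macrophages. The source of this RNA was not tested. Hba-a1 and Hba-a2, Hbb-bs and Hbb-bt, and Ms4a6b and Ms4a6d are closely related copies, and how reads shared by such copies were counted is not given in the sources used here.

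**Figure D2:**
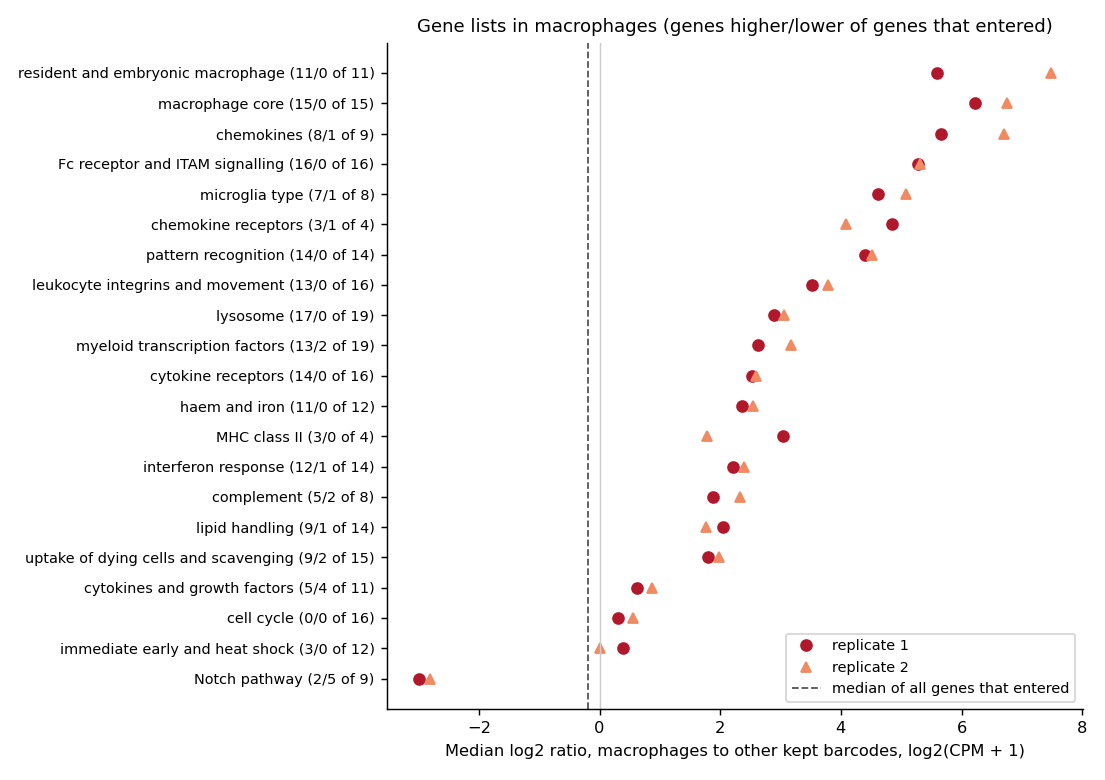
Median log2 ratio of macrophages to other kept barcodes, on log2(CPM + 1), for each of 21 gene lists, with replicate 1 as circles and replicate 2 as triangles. The numbers beside each name are genes called higher, genes called lower and genes that entered. Lists of macrophage identity lie at the top, the Notch pathway lies below 0 in both libraries, and the dashed line is the median of all genes (−0.19).

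Most genes of macrophage identity that entered were higher. All 15 core genes were called higher, with a median log2 ratio of 6.22 and 6.75. Only 1 of the 15 had at least 20 CPM in the other barcodes of both libraries, so the count was largely set by the entry rule. The core genes included Tyrobp (2215 and 2122 CPM against 28.3 and 18.8) and Fcer1g (2907 and 2666 CPM against 26.6 and 17.9), the adaptor chains of activating receptors. Csf1r, the survival receptor, stood at 515 and 628 CPM against 4.93 and 3.82, and Adgre1, which encodes the F4/80 antigen, at 138 and 219 CPM against 0.864 and 0.991. In the list of resident and embryonic macrophage genes, 11 of 11 that entered were higher, with medians of 5.59 and 7.48. Only 1 of the 11 had at least 20 CPM in the other barcodes of both libraries, and 4 of 15 listed genes did not enter. Besides Mrc1, Pf4 and F13a1 the higher genes included Sepp1, a secreted selenium carrier (829 and 1091 CPM against 88.5 and 77.0), and Stab1, a scavenger receptor (544 and 623 CPM against 10.3 and 6.83). Timd4, a receptor for phosphatidylserine on dying cells, was too low to enter in replicate 1, at 15.2 and 54.4 CPM, and Vsig4 had 0 UMIs in both libraries. In the microglia list 7 of 8 genes were higher, and the exception was Sall1, a transcription factor of microglia and of nephron progenitors, with 4 and 3 UMIs in macrophages (3.57 and 3.08 CPM against 85.5 and 87.9). None of the 7 had at least 20 CPM in the other barcodes of both libraries. P2ry12, a purine receptor of microglia, stood at 29.5 and 32.9 CPM against 0.288 and 0.167. Tmem119, another microglial gene, stood at 10.7 and 13.4 CPM and did not enter.

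Among myeloid transcription factors, 13 of 19 were higher and 2 were lower, with medians of 2.62 and 3.17. Spi1, which encodes the lineage factor PU.1, was at 503 and 536 CPM against 6.10 and 4.12. Maf was at 1143 and 1713 CPM against 137 and 130, and Irf8 at 157 and 206 CPM against 8.10 and 7.40. The inhibitors of DNA binding Id2 and Id3 were lower, with Id3 at 67.0 and 40.1 CPM against 522 and 513. Spic, which controls iron-recycling macrophages of the spleen, stood at 120 and 83.2 CPM against 0.648 and 0.219 and was found in 41 and 24 cells.

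Genes that handle haem, iron and lipid were mostly higher. In the haem and iron list 11 of 12 genes were higher, with medians of 2.36 and 2.55. The ferritin genes Ftl1 (10758 and 11602 CPM against 2075 and 2018) and Fth1 (8473 and 7392 CPM against 1657 and 1526) store iron. Hmox1, which opens the haem ring, stood at 1231 and 860 CPM against 19.99 and 11.8. Slc40a1, the iron exporter ferroportin, stood at 532 and 728 CPM against 35.3 and 33.6. The exception was Tfrc, the transferrin receptor that imports iron, at 24.1 and 68.8 CPM against 30.3 and 34.3. In the lipid list 9 of 14 genes were higher and 1 was lower. Apoe, the apolipoprotein of lipid export, was at 16037 and 16244 CPM against 159 and 160, and was found in every macrophage. Abca1, a cholesterol exporter, was at 301 and 330 CPM against 17.0 and 14.9, and Plin2, a lipid droplet coat protein, at 662 and 656 CPM against 43.7 and 38.7. Fabp4, a fatty acid carrier of endothelium, was lower, at 24.1 and 39.0 CPM against 851 and 628.

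Lysosome genes were also higher, with 17 of 19 called and medians of 2.89 and 3.05. The proteases Ctsb (2285 and 2320 CPM against 102 and 98.1), Lgmn (1358 and 1409 CPM against 68.0 and 71.1) and Ctsc (1155 and 1012 CPM against 26.0 and 23.4) had the highest ratios. Ctsl and the membrane protein Cd63 were not called, with Ctsl at 506 and 407 CPM against 480 and 446. Among genes for uptake of dying cells and scavenging, 9 of 15 were higher and 2 were lower. Msr1, a scavenger receptor, was at 351 and 266 CPM against 2.10 and 1.28, and Cd300a, a lipid-binding inhibitory receptor, at 247 and 220 CPM against 2.62 and 2.36. The bridging ligand Gas6 and the receptors Axl and Mertk, which bind phosphatidylserine through it, were all higher, with Gas6 at 181 and 327 CPM against 24.8 and 27.9. The other bridging ligand Mfge8 was lower, at 21.4 and 6.16 CPM against 101 and 93.3, and the related receptor Tyro3 had 0 and 1 UMIs. In the complement list 5 of 8 genes were higher and 2 were lower. The receptor C5ar1 stood at 346 and 201 CPM against 2.41 and 1.13, and properdin (Cfp), which stabilises the alternative pathway, at 269 and 253 CPM against 3.98 and 3.004. C3, the central component, gave only 11 and 3 UMIs.

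Among signals sent by macrophages, most chemokine genes that entered were higher. In that list 8 of 9 genes were higher, with medians of 5.66 and 6.71. None of the 8 had at least 20 CPM in the other barcodes of both libraries, and 7 of 16 listed genes did not enter. Ccl6 stood at 465 and 437 CPM against 6.30 and 4.29, Ccl9 at 312 and 321 CPM against 2.42 and 1.27, and Ccl2 at 171 and 206 CPM against 1.23 and 0.939. Cxcl12, a stromal chemokine, was lower (8.04 and 7.19 CPM against 133 and 122), and Cxcl1 had 0 UMIs in both libraries. Of 11 cytokine and growth factor genes that entered, 5 were higher and 4 lower. Tgfb1 was at 307 and 364 CPM against 27.2 and 20.7, Igf1 at 118 and 232 CPM against 23.6 and 21.1, and Il18 at 139 and 108 CPM against 2.37 and 1.81. Il1b reached 48.2 and 63.7 CPM, but 57 of its 62 UMIs in replicate 2 came from 1 cell, and without that cell the level was 5.19 CPM. Vegfa (3.57 and 3.08 CPM against 64.2 and 59.9), Pdgfa, Pdgfc and Hbegf were lower, and Il6, Areg and Il34 had 0 UMIs.

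Signals received were also represented. Of 16 cytokine receptor genes 14 were higher and none was lower, led by ratio by Il21r (42.9 and 55.5 CPM against 0.296 and 0.198) and Csf2rb (210 and 118 CPM against 3.27 and 1.43), with Il4ra at 277 and 142 CPM against 6.33 and 4.77. Of 4 chemokine receptors that entered, 3 were higher, including Ccr1 (369 and 287 CPM against 3.16 and 1.84) and Ccr2, and Ackr3 was lower. None of the 3 had at least 20 CPM in the other barcodes of both libraries. Other leukocytes, by the stricter gate given below, had more Ccr2 than macrophages, at 384 and 369 CPM against 125 and 28.8. All 16 genes of Fc receptor and ITAM signalling that entered were higher, such as Fcgr3 at 946 and 616 CPM against 5.55 and 3.11. None of the 16 had at least 20 CPM in the other barcodes of both libraries, so the entry rule largely set this count. All 14 pattern recognition genes that entered were higher too, with the lectin receptor Clec4a2 at 378 and 306 CPM against 2.86 and 1.88 and Tlr7 at 55.4 and 34.9 CPM against 0.376 and 0.282. Only 1 of the 14 had at least 20 CPM in the other barcodes of both libraries, and 10 of 24 listed genes did not enter. In the list of leukocyte integrins and movement 13 of 16 genes were higher, such as Rac2 at 410 and 350 CPM against 7.74 and 5.52. The interferon list had 12 of 14 genes higher and 1 lower, including Ifitm2, Ifitm3 and Ifi27l2a (1034 and 814 CPM against 23.9 and 16.6). The induced genes Ifit1 and Mx1 had at most 11 UMIs in either library. Of 12 immediate early and heat shock genes, Fos, Junb and Zfp36 were higher, with Fos at 66.1 and 54.4 CPM against 5.11 and 6.88.

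Genes for antigen presentation on MHC class II were scarce. H2-Aa gave 30 and 4 UMIs, H2-Ab1 41 and 4, and H2-Eb1 19 and 1. In replicate 1 all 30 H2-Aa UMIs, 34 of the H2-Ab1 UMIs, all 19 H2-Eb1 UMIs and 117 of 221 Cd74 UMIs came from 1 macrophage, which also held 8 Ccr2 UMIs. Only 2 macrophages in each library had at least 2 UMIs of the 3 class II genes together. The share of macrophages with an H2-Ab1 UMI was 6.67% (2.72 to 13.3) and 2.56% (0.312 to 8.96), below the 33.5% and 31.2% of epithelial barcodes, which were deeper, so no class II expression can be read from these shares. After thinning to 4000 UMIs the shares were 4.44% and 1.56%, against 8.72% and 8.28%. Ciita, the master regulator of class II genes, had 0 UMIs in macrophages. Of the 4 genes of the list that entered, Cd74 (the invariant chain), Cd86 and H2-DMa were higher, with Cd86, a ligand for T cells, at 66.1 and 69.8 CPM against 0.608 and 0.480.

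The Notch pathway was examined because Rbpj, its DNA-binding factor, is the targeted gene. Rbpj stood at 145 and 196 CPM in macrophages (162 and 191 UMIs), against 45.7 and 45.7 CPM in the other barcodes. In stromal barcodes (at least 10 collagen UMIs, a Pdgfra or Pdgfrb UMI, and no C1q, Epcam or Pecam1) it was at 29.1 and 28.8 CPM, in endothelial barcodes at 42.2 and 43.8, and in epithelial barcodes at 45.1 and 44.8. Reads at the 3′ end cannot separate a complete transcript from one that lacks an internal exon, so these levels do not say how much functional Rbpj was made. Of 9 Notch genes that entered, Rbpj and Dtx4 were higher and 5 were lower, with medians of −2.99 and −2.80. The target gene Hes1 was at 17.0 and 17.5 CPM against 160 and 148, and Hey1, Nrarp, Jag1 and Dll1 were lower too. Notch1 (51.8 and 44.2 CPM against 70.3 and 70.4) and Notch2 (30.4 and 21.6 CPM against 24.7 and 26.6) were not called. Hes5, Heyl, Hey2, Jag2 and Dll4 had 0 UMIs in macrophages of both libraries.

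Many macrophages were in the cell cycle. At least 2 UMIs of the proliferation genes Mki67 and Top2a were found in 38 of 105 macrophages (36.2%, 27.0 to 46.1) and 28 of 78 (35.9%, 25.3 to 47.6), against 29.9% and 30.1% of the other kept barcodes. After thinning to 4000 UMIs the shares were 27.8% (18.9 to 38.2) and 29.7% (18.9 to 42.4) in macrophages, 20.6% and 21.6% in all other barcodes and 26.5% and 26.7% in epithelial barcodes. At matched depth the intervals of the macrophages therefore held the epithelial values in both libraries, and the value of all others in both too. None of the 16 cell cycle genes that entered was called in either direction, and Mki67 stood at 319 and 471 CPM against 216 and 218. Macrophages with at least 2 such UMIs were deeper (medians of 11857.5 and 17927 UMIs) than those with none (9049 and 7925). Between these sides 161 of 5159 genes were higher in the dividing cells (3.12%) and 13 were lower (0.252%), in sum 174 genes, which became 72 with a mitochondrial limit of 5%. The leading genes were mitotic, such as Nusap1 with 103 and 93 UMIs against 1 and 1. Genes higher in the cells without such UMIs included S100a6 (341 and 166 CPM against 84.2 and 16.2), Fn1 and Plac8. In replicate 2 these 3 genes were found in only 5, 8 and 3 of those cells. Of 4 monocyte genes that entered, 2 were lower in the dividing cells and none was higher. None of the 11 resident genes that entered was called across this split.

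The macrophages were also compared with other leukocytes. The gate set out for this comparison, Ptprc-positive barcodes without C1q, held 365 and 294 barcodes, of which 67.4% and 73.1% had an Epcam UMI, and against it 919 of 7570 genes were higher (12.1%) and 1548 lower (20.4%). A stricter gate that also asked for Laptm5 and Coro1a, chosen after this was seen, held 98 and 59 barcodes, of which 13.3% and 1.69% had an Epcam UMI and 53 and 23 had more than 5 S100a8 UMIs. Against the stricter gate 420 of 6379 genes were higher in macrophages (6.58%) and 477 lower (7.48%). All 11 resident genes that entered were higher, with Pf4 at 3785 and 5119 CPM against 20.8 and 24.7 in the other leukocytes, Lyve1 at 284 and 1105 against 0.903 and 4.12, and Cd163 at 206 and 379 against 3.61 and 2.06. Of 8 chemokines 7 were higher, of 12 haem and iron genes 7, and of 19 lysosome genes 11, with none lower in these 3 lists. Other lists did not stand above these leukocytes. Of 6 chemokine receptors 0 were higher and 4 lower, and of 17 integrin and movement genes 1 was higher and 4 lower. Of 19 Fc receptor and ITAM genes 2 were higher and 3 lower, and of 18 cytokine receptors 3 were higher and 3 lower. Of 13 core genes 7 were higher and 1 lower, and of 8 microglia genes 5 were higher and 1 lower. Of 21 transcription factors 3 were higher and 4 were lower, and none of 13 interferon genes was called. Beside the 6.58% and 7.48% of all genes, these counts are too small to be read as a result. Lower in macrophages were Lyz2, the lysozyme gene shared by phagocytes (1287 and 1557 CPM against 3623 and 3838), 4 of 7 class II genes, and neutrophil granule genes such as Ngp, Camp and Ltf, which had 0 UMIs in macrophages. Rbpj was higher than in the other leukocytes too, which had 50.6 and 63.9 CPM.

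The cells that passed the rule were not of 1 kind. Ccr2, the receptor through which monocytes leave the marrow (chromosome 9, 124101918 to 124109140), was found in 22 of 105 macrophages (20.95%, 13.6 to 29.99) and 9 of 78 (11.5%, 5.41 to 20.8). Lyve1, a hyaluronan receptor of resident macrophages (chromosome 7, 110850607 to 110862953), was found in 29 (27.6%, 19.3 to 37.2) and 33 (42.3%, 31.2 to 54.0). In epithelial barcodes the shares were 0.653% and 0.311% for Ccr2 and 0.598% and 0.870% for Lyve1, and after thinning to 4000 UMIs the macrophage shares were 18.9% and 6.25% for Ccr2 and 20% and 34.4% for Lyve1. A single Ccr2 UMI placed 5 of the 22 and 5 of the 9 cells. No macrophage of either library had both, and 54 and 36 had neither. The 318 and 1076 Lyve1 UMIs therefore all lay in macrophages without a Ccr2 UMI, although those with Ccr2 were the deeper cells, with medians of 11385 and 16640 UMIs against 8826 and 11058. The split by Lyve1 was chosen after the values were seen, and few cells, 9 in replicate 2, stand behind the Ccr2 values.

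**Figure D3:**
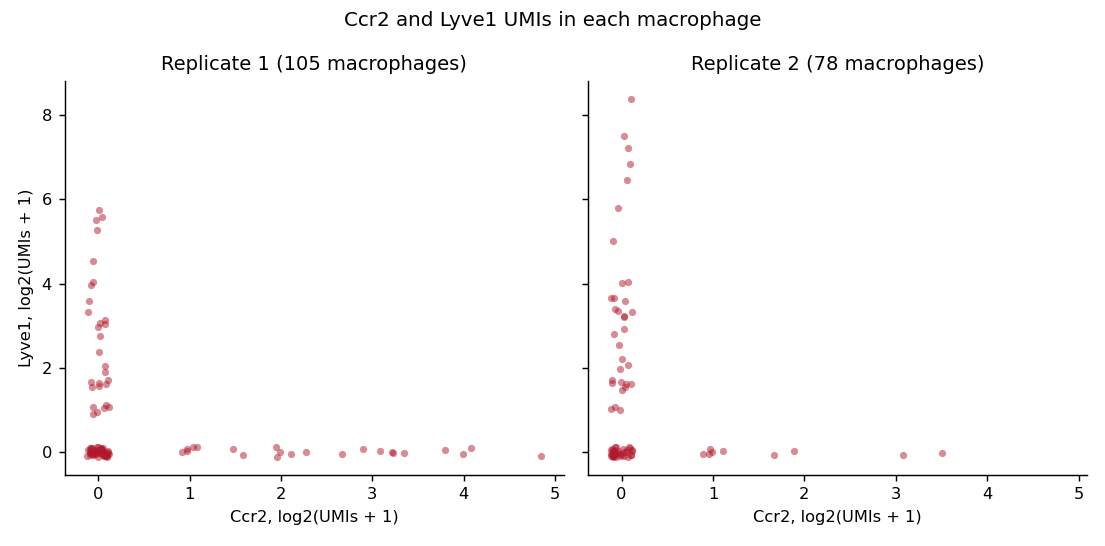
Ccr2 UMIs (horizontal, log2 of UMIs + 1) and Lyve1 UMIs (vertical, log2 of UMIs + 1) in each macrophage, 1 point a cell, with a small random shift so that points do not cover each other. The points lie along the axes in both libraries, with 22 and 9 cells along the Ccr2 axis, 29 and 33 along the Lyve1 axis and none away from both axes.

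Some monocyte genes were higher in the Ccr2-positive cells. Between macrophages with and without Ccr2, 27 of 5601 genes were higher with Ccr2 (0.482%) and 177 were lower (3.16%), in sum 204 genes, or 125 with a mitochondrial limit of 5%. Of 3 monocyte genes that entered besides Ccr2, Plac8 and Ms4a4c were higher, and Fn1 was not called, with 232 and 9 UMIs against 56 and 30 and ratios of 13.2 and 1.89. Plac8 stood at 360 and 278 CPM with Ccr2 and 42.2 and 7.14 without. Ms4a4c stood at 150 and 165 CPM against 23.5 and 9.52, Cd52, a small leukocyte surface glycoprotein, at 1233 and 421 CPM against 252 and 107, and the calcium-binding protein gene S100a6 at 615 and 188 CPM against 77.4 and 47.6, although 18 of its 25 UMIs in replicate 2 came from 1 cell. Spp1 (osteopontin) was higher as well, but 84 of its 113 UMIs in replicate 1 and all 86 in replicate 2 came from 1 cell each. Cd74 was at 630 and 173 CPM against 62.2 and 48.8, and in replicate 1 the class II-rich cell described above gave 117 of the 168 UMIs, while in replicate 2 a single cell gave 15 of the 23. Ly6c2, a marker of classical monocytes, was found in 5 of 22 Ccr2-positive cells of replicate 1 and in none of 9 in replicate 2.

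Genes of resident macrophages were lower in the same cells. Of 11 resident genes that entered, 8 were lower with Ccr2 and none was higher. C1qa, a gene of the rule, was at 2387 and 2908 CPM with Ccr2, 4111 and 3950 with neither gene and 5222 and 4032 with Lyve1. It was found in 18 of 22 and 8 of 9 cells with Ccr2. Whether some cells with Ccr2 were monocytes that passed the rule was not tested. Pf4 stood at 986 and 1781 CPM in cells with Ccr2, 3185 and 2663 in cells with neither gene and 7680 and 7942 in cells with Lyve1. Mrc1 followed the same order in replicate 1, at 858, 1692 and 3761 CPM, while in replicate 2 it stood at 1150 (975 to 1347), 1306 (1191 to 1428) and 3392 CPM, so the first 2 did not differ beyond their counting intervals. Hmox1 was at 71.2 and 97.7 CPM with Ccr2, 936 and 649 with neither and 2940 and 1235 with Lyve1. Gas6 gave 6 and 4 UMIs with Ccr2 against 197 and 314 without, Fcna (ficolin A, a lectin of the complement system) 2 and 2 against 157 and 371, and Vcam1, an adhesion molecule of iron-recycling macrophages, 1 and 0 against 499 and 173. Apoe stood at 16494 and 20504 CPM with Ccr2 and 15263 and 15427 CPM with Lyve1, but 1 cell gave 1097 of the 2729 UMIs with Ccr2 in replicate 2. Trem2 was at 281 and 436 CPM with Ccr2 and 282 and 345 CPM with Lyve1, but 34 of the 58 UMIs with Ccr2 in replicate 2 came from 1 cell.

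The cells with Lyve1 were compared with the rest in the same way. Between macrophages with and without Lyve1, 93 of 5646 genes were higher with it (1.65%) and 77 lower (1.36%), in sum 170 genes, or 112 with a mitochondrial limit of 5%. Ednrb, an endothelin receptor, was at 832 and 852 CPM with Lyve1 and 84.6 and 88.3 without. Cd163, the receptor for haemoglobin bound to haptoglobin, was at 675 and 661 CPM against 50.03 and 110. Folr2, a folate receptor, was at 75.01 and 223 CPM against 8.34 and 22.1, and the eosinophil chemokine Ccl24 at 175 and 248 CPM against 16.7 and 46.1. F13a1 was at 1972 and 1984 CPM in these cells, 575 and 391 CPM in cells with neither gene and 795 and 398 CPM in cells with Ccr2, so it was not lowest with Ccr2. Cd209f, a lectin, was almost limited to them, with 36 of 36 and 291 of 292 UMIs, but in replicate 1 these lay in 2 cells. On the side without Lyve1 the cyclin gene Ccnd2 was at 212 and 167 CPM against 7.14 and 14.7, and Il1b gave 54 and 62 UMIs against 0 and 0, with 57 of the 62 in 1 cell. The share with at least 2 Mki67 and Top2a UMIs had no common order, at 4 of 22 and 3 of 9 with Ccr2, 25 of 54 and 9 of 36 with neither, and 9 of 29 and 16 of 33 with Lyve1.

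**Figure D4:**
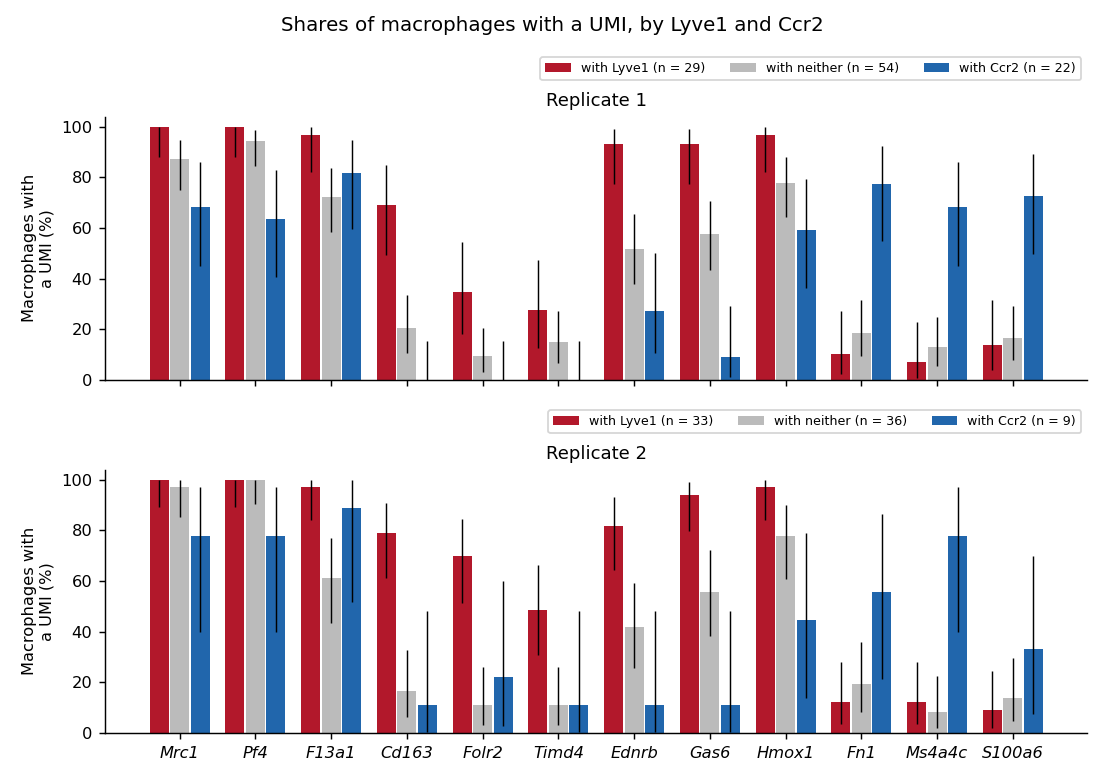
Share of macrophages with a UMI of each of 12 genes (%, bars from 0, error bars are exact binomial 95% intervals) among cells with Lyve1 (red), with neither gene (grey) and with Ccr2 (blue), for replicate 1 above and replicate 2 below. Cd163 and Ednrb are found most often with Lyve1, and Fn1, Ms4a4c and S100a6 most often with Ccr2, in both libraries.

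The macrophages were also split by Cx3cr1 and by F13a1. The 24 and 11 macrophages without a Cx3cr1 UMI were shallow, with medians of 5784.5 and 4285 UMIs against 10879 and 12409. When every macrophage was first thinned to 4000 UMIs, this split gave 122 called genes against 152, and the split by F13a1 gave 109 against 144. With means of per-cell CPM in place of sums the counts were 281 and 229. Across this split 93 of 5635 genes were higher with Cx3cr1 (1.65%) and 59 lower (1.05%). S100a6 stood at 1002 and 484 CPM without Cx3cr1 against 63.2 and 45.3 with it, although 2 cells held all 23 of these UMIs in replicate 2, and Lgals3 (galectin 3) at 1308 and 1052 CPM against 365 and 233. In replicate 2 all 10 Ccr2 UMIs and all 13 Plac8 UMIs of the cells without Cx3cr1 came from 1 cell. The 20 and 16 macrophages without F13a1 were also shallow, with medians of 6177.5 and 5164 UMIs against 10371 and 12403, and here 123 of 5639 genes were higher with F13a1 (2.18%) and 21 lower (0.372%). Among genes higher without F13a1 was the antiapoptotic gene Bcl2a1b (211 and 219 CPM against 90.5 and 64.3). Lyve1 gave 2 and 6 UMIs in these cells against 316 and 1070 in cells with F13a1.

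The libraries agreed in most genes and parted in a few groups. Among 7072 genes with at least 30 macrophage UMIs in sum, 155 were at least 2-fold higher in replicate 2 (2.19%) and 179 in replicate 1 (2.53%), with a median log2 difference of 0.023. With a mitochondrial limit of 5% the first count was 102, and with no limit on Pecam1 and Epcam the second was 644. With 1 library on each side there is no replicate check of these differences. In the resident list 6 of 14 genes were higher in replicate 2 and none in replicate 1. Lyve1 was at 284 CPM in replicate 1 and 1105 in replicate 2, a ratio of 3.89 (3.43 to 4.42). A single macrophage of 48367 UMIs, the deepest in replicate 2, held 325 of its 1076 Lyve1 UMIs, and without the highest cell of each library the ratio was 3.43. For Folr2 the ratio was 4.80 (3.16 to 7.54), and 3.60 without the highest cells, and for Cbr2, a carbonyl reductase, 5.84 (3.12 to 11.9), and 5.21 without them. In the monocyte list 4 of 5 genes were higher in replicate 1 and none in replicate 2, with Ccr2 at 125 and 28.8 CPM and Fn1 at 257 and 40.1 CPM. A macrophage of 25109 UMIs in replicate 1 held 98 of the 288 Fn1 UMIs together with 46 Col3a1, 24 Wnt4 and 14 Ccr2 UMIs. Some library differences rested on 1 cell, such as Hspb1 in replicate 2 (69 of 70 UMIs) and Myh11 in replicate 2 (46 of 46), and Nts in replicate 1 came from 2 cells (43 and 12 UMIs).

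**Figure D5:**
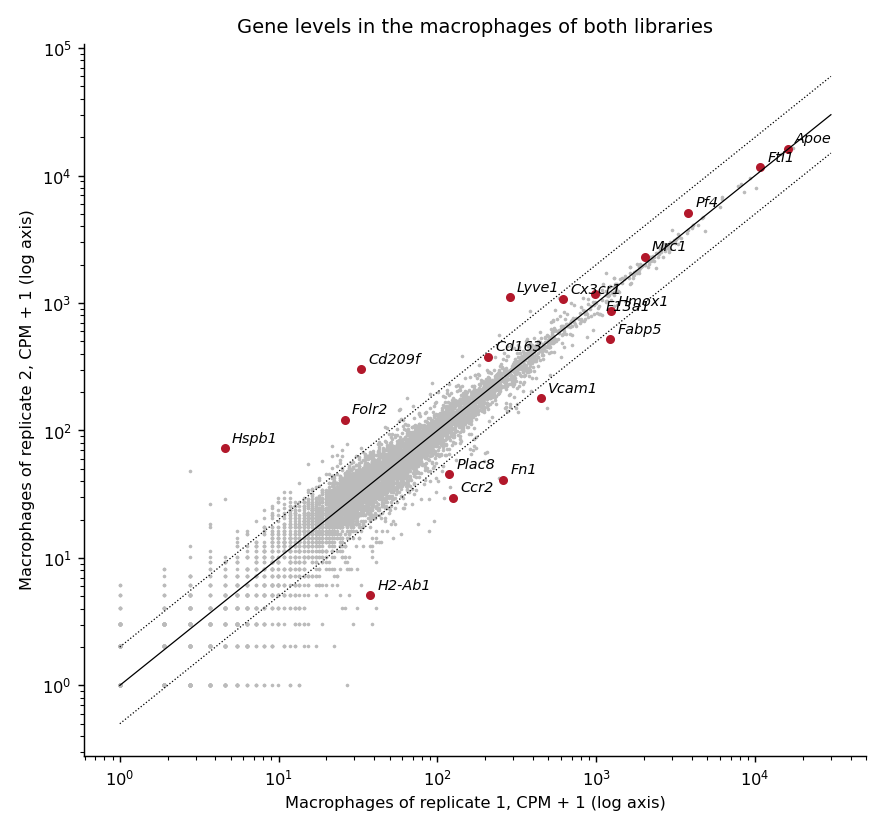
Level of each gene that entered the comparison with other barcodes (grey) in the macrophages of replicate 1 (horizontal) and replicate 2 (vertical), in CPM + 1 on log axes, with named genes in red. The solid line is equality and the dotted lines mark 2-fold differences. Apoe, Mrc1 and Pf4 lie between the dotted lines, Lyve1, Folr2 and Cd209f lie above them and Ccr2, Fn1 and H2-Ab1 below.

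The libraries also differed in sex-linked RNA. Xist, made from the inactive X chromosome, gave 1130 UMIs in the macrophages of replicate 1 and 0 in replicate 2, and the Y-linked genes Ddx3y and Eif2s3y gave 0 in replicate 1 and 60 and 54 in replicate 2. The labels do not state sex, so replicate and sex cannot be told apart in the differences above. Ifi202b, an interferon-inducible gene, gave 0 UMIs in replicate 1 and 66 UMIs in 38 macrophages of replicate 2, at least 25.3-fold more, and the other kept barcodes had 0 and 1.03 CPM. When the libraries were compared over macrophages without a Ccr2 UMI, 131 genes were higher in replicate 2 and 145 in replicate 1.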

How the data were processed

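Counts of 2 libraries of mutant newborn kidney were read from the deposited matrices, which hold raw UMI counts per gene and barcode for 28693 features and every barcode. The matrices name Cell Ranger 4, per the file headers, while per the submitters' processing notes Cell Ranger 6.0.1 and mm10 were used. Barcodes were kept at 2000 UMIs and 10% mitochondrial UMIs, which removed 690 and 768 barcodes for the latter. Total depth was 163405630 and 135436576 UMIs. Doublets were not removed in the main values, and Scrublet (scanpy 1.11.5) was used for an alternative.

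UMIs were summed per group and library and scaled to CPM with numpy 2.4.6 and scipy 1.17.1. Poisson, binomial and conditional intervals are exact and cover counting error only, and a count of 0 was set to a floor of 3 counts per group and library for ratios. The 3′ counts carry no length term, and levels were compared between groups, not between genes. Log2 values use CPM + 1. Genes were named by a rule: the markers, the 20 highest and 10 lowest ratios, up to 5 genes by level and 3 by ratio in each of 21 lists, and the leading 10 of each split, with further genes named because a sentence turns on them. The cells, gene lists, 16 marker lists and rules were chosen with earlier results of these data known. The calling step was tested on simulated data. TMM factors were taken from edgeR 4.0.16 in an alternative, and no p-value was computed. A few genes are not reported here.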

Additional observations from a re-analysis of the deposited data

Results flagged for a closer look

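EYFP, a yellow fluorescent protein listed among the features although the labels do not explain it, gave 25 UMIs in the macrophages of replicate 1 and 10 in those of replicate 2. It was singled out because it lies outside the gene comparisons and exceeds the 3 counts that a count of 0 allows, with no control libraries analysed here. Its level was 22.3 and 10.3 CPM in macrophages, 372 and 338 CPM in stromal barcodes, 18.5 and 18.7 CPM in epithelial barcodes and 48.0 and 49.0 CPM in barcodes with at most 100 UMIs. The share of macrophages with a UMI was 8.57% and 6.41%, in 9 and 5 cells, and that of epithelial barcodes, which were deeper, was 18.0% and 15.8%. After thinning to 4000 UMIs the shares were 2.22% and 1.56% in macrophages and 7.77% and 6.71% in epithelial barcodes, and no expression is read from them. The source of these UMIs was not tested. With 2 libraries in 1 group, no sample could be tested against the others.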

How the results depend on the processing

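Of 178 recomputed values of the 14 main results, 152 stayed within their limit (1 SD over the libraries, or 1.5 times for a count). The mean macrophage share of 1.60% became 1.78% with a minimum of 1000 UMIs, 1.92% with a mitochondrial limit of 5%, 1.92% with no limit on Pecam1 and Epcam and 1.35% with at least 30 C1q UMIs (added after the data were seen). Genes higher in macrophages numbered 3452 with no CPM minimum, and genes lower 2772 with a minimum of 5 CPM and 2889 with none. The stricter leukocyte gate gave 420 and 477 genes. With a mitochondrial limit of 5% the genes called were 72 in the dividing split, 125 in the Ccr2 split and 112 in the Lyve1 split (main counts 174, 204 and 170), and 102 genes were higher in replicate 2. With no limit on Pecam1 and Epcam 644 genes were higher in replicate 1. With means of per-cell CPM the Cx3cr1 split gave 281 genes and the F13a1 split 229. In a single library, where the same direction in both is not asked for, the splits gave 545 to 594 genes (dividing), 1148 to 1689 (Cx3cr1), 925 to 1151 (F13a1), 994 to 1077 (Ccr2) and 585 to 927 (Lyve1). The causes of the other shifts were not tested. Of 4432 recomputed log2 ratios of single genes, 3494 stayed within their limit, 937 moved and 1 called ratio turned direction. Leaving out a library gave a share of 1.51% to 1.69%, 1150 to 1211 genes higher and 1736 to 1755 lower, and the number of lists with a median log2 ratio of at least 1 was 17 of 21, as in the other settings run except the 5% mitochondrial limit (16). Removing the highest Scrublet scores took out 7 and 6 macrophages. That gene was Spp1, at −0.069 on the log2 scale with a mitochondrial limit of 20%. The ratios of H2-Ab1, Klf4 and Hspb1, which were not called, also changed sign in some settings. The share with a UMI of the 4 markers (median 84.9%) lay between 78.3% and 91.4% in single libraries.

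No paired analysis was possible because both libraries belong to 1 group and the labels give no replicate numbers. A search of promoters for a motif was set out and not run, since no sequences were used here. The small number of macrophages limits the splits, and several genes in them rest on 1 cell.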

Other observations

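Ligands for macrophage receptors were read in the other cells of the same libraries. Csf1, a ligand of the Csf1r receptor, stood at 23.0 and 15.01 CPM in endothelial barcodes and at 18.7 and 16.3 CPM in stromal barcodes, against 1.79 and 4.11 CPM in macrophages (2 and 4 UMIs). Il34, the other ligand of Csf1r, stood at 6.79 and 8.64 CPM in epithelial barcodes and gave 0 UMIs in macrophages. Cx3cl1, the ligand of Cx3cr1, was at 26.2 and 22.0 CPM in endothelial barcodes and at 0.893 and 1.03 CPM in macrophages (1 UMI in each library). In barcodes with at most 100 UMIs, where the source of the RNA was not tested, these genes were at 9.94 and 12.2, 5.68 and 3.87, and 6.53 and 7.19 CPM.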
